A study of Mus musculus with 2 samples.

Results

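The cells described here are macrophages of the mouse sciatic nerve with little RNA of the major histocompatibility complex (MHC) class II genes. They were chosen by measured values. A cell had at least 1000 unique molecular identifiers (UMIs, each tagging a captured RNA molecule) and at least 200 detected genes. It had at least 5 UMIs summed over *C1qa*, *C1qb* and *C1qc*, which encode the 3 chains of complement C1q and mark tissue macrophages. Less than 2% of its UMIs lay on *Cd74*, *H2-Aa*, *H2-Ab1* and *H2-Eb1* together. These limits gave 485 class II low cells of 3736 cells with enough C1q and of 3764 cells over the UMI and gene limits. They were set against 1796 class II high cells, which met the same UMI, gene and C1q limits and had 5% or more of their UMIs on the 4 genes, and 1455 cells lay in between.

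The study asked how far origin and the nerve itself shape the RNA of nerve macrophages. Sciatic nerves of 19 male Flt3-Cre LSL-YFP fl/fl mice aged 10 to 12 weeks were pooled, and CD64+ CD45int cells were sorted into YFP− and YFP+ cells, which gave 1 droplet library each. Flt3-Cre switches YFP on in blood progenitors that pass a *Flt3* stage, and all their descendants keep it, so that YFP+ cells stood for progeny of hematopoietic stem cells and YFP− cells for macrophages of embryonic origin. The mice carried the same alleles in both groups, had no treatment in the labels, and were pooled, so the spread between animals is not known, no test of a condition or of a gene was made, and all intervals (exact, 95%) cover counting error only.

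The YFP− library held 3653688 UMIs and 895 cells over the UMI and gene limits, and the YFP+ library held 9365598 UMIs and 2869 such cells. Class II low cells numbered 176 in the YFP− library, with a median of 2548.5 UMIs, and 309 in the YFP+ library, with a median of 1832 UMIs. The libraries shared 7 barcodes with at least 500 UMIs in both, of which 1 was a low cell in the YFP− library and 2 were low cells in the YFP+ library, none of them low in both. Without the shared barcodes the share of low cells was 19.8% and 10.8%.

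MHC class II molecules show peptides from engulfed proteins to CD4+ T cells. Their chains assemble on the invariant chain, the product of *Cd74*, which cathepsin S trims and the H2-DM dimer then helps to replace by peptide. Transcription of this set of genes depends on the coactivator *Ciita*, which acts through factors bound to short promoter boxes, among them an inverted CCAAT box bound by NF-Y. In several tissues, resident macrophages with little class II carry the hyaluronan receptor *Lyve1*, and macrophages with much class II carry more of the monocyte chemokine receptor *Ccr2*.

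The class II genes apart from *Cd74*, which lies on another chromosome, form a block on chromosome 17 (GRCm38), with *H2-DMa* at chr17:34119541-34139101, *H2-DMb1* at chr17:34153072-34160230, *H2-Ab1* at chr17:34257689-34269419, *H2-Aa* at chr17:34282744-34287823 and *H2-Eb1* at chr17:34305867-34316674. The 250 bases before the RefSeq start (GRCm38.p6) are shown for 2 genes of the rule and for *H2-DMb1*, the gene outside the rule whose level followed class II most closely. They are read 5′ to 3′ on the strand of the gene, and capitals mark CTGATTGG and CCAAT found on either strand. CTGATTGG ends in ATTGG, which is CCAAT on the opposite strand, so that the motifs overlap. The *H2-DMb1* window follows the RefSeq start and overlaps the GENCODE gene given above.
*H2-Aa*, chr17:34287824-34288073, minus strand: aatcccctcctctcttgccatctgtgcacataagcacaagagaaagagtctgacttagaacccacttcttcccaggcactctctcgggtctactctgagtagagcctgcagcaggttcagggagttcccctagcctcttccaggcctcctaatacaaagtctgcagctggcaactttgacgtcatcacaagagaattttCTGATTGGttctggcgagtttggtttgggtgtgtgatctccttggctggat
*H2-Eb1*, chr17:34305617-34305866, plus strand: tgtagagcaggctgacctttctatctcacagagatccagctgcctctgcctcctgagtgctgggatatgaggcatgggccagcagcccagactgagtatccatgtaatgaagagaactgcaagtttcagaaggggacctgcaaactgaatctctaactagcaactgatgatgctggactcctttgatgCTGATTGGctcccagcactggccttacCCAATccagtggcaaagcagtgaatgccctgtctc
*H2-DMb1*, chr17:34152941-34153190, plus strand: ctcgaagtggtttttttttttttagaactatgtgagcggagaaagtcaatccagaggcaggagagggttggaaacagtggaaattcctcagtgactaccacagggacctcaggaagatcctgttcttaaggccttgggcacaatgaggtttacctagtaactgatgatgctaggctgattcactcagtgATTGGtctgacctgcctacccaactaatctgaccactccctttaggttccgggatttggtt

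CTGATTGG began 51 bases before the start of *H2-Aa* and 62 bases before the start of *H2-Eb1*. The *H2-DMb1* window held no CTGATTGG and held CCAAT, on the opposite strand, 61 bases before the start. Of 8 windows of 7 class II genes of chromosome 17, 3 held CTGATTGG and 7 held CCAAT. Among all 32851 mouse promoters of the same length, 3.83% held CTGATTGG and 33.8% held CCAAT. These are matches of letters, and no binding was measured.

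Class II RNA was low but present in the low cells. The median share of UMIs on the 4 genes was 1.03% for YFP− and 1.10% for YFP+ low cells, which amounted to 22.5 and 18 UMIs. The median high cell had 6.51% and 7.06%, or 161 and 143 UMIs. These values chose the cells and are given as a description. No gap in the distribution set the low cells apart, since the cells nearest to the 2% limit stood at 1.97% and 2.03% in the YFP− library and at 1.996% and 2.003% in the YFP+ library. Within 0.5 percentage points of the limit lay 60 cells below and 40 above in the YFP− library, and 95 below and 106 above in the YFP+ library. At the other limit, the nearest cells had 4.99% and 5.004% in the YFP− library and 4.998% and 5% in the YFP+ library.

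**Figure D1:**
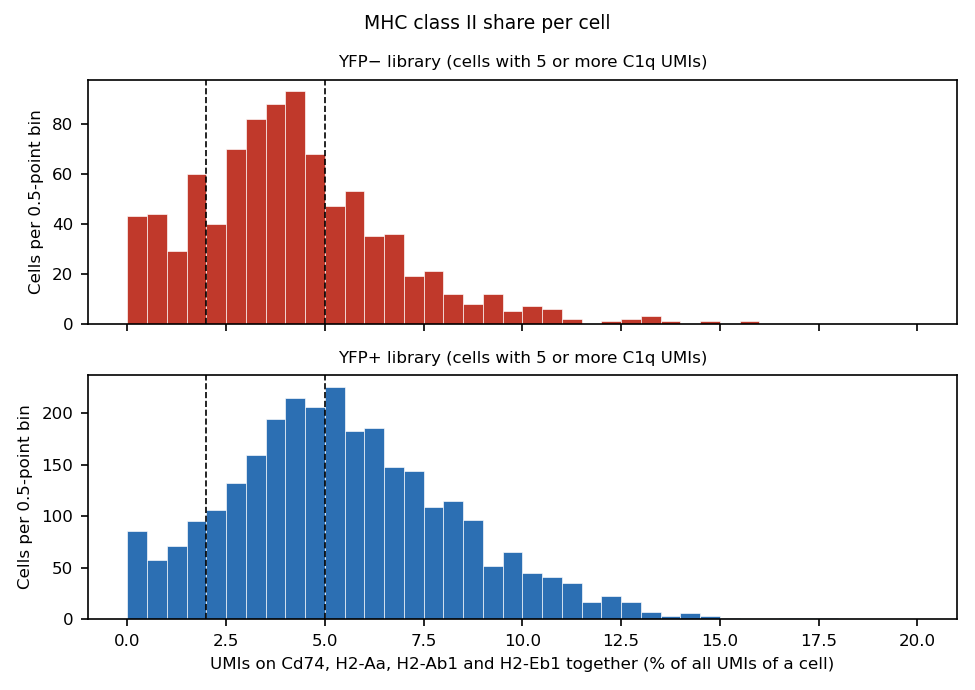
Number of cells (y axis) by the share of their UMIs on *Cd74*, *H2-Aa*, *H2-Ab1* and *H2-Eb1* together (x axis, in percent, bins of 0.5 points) for cells with 5 or more C1q UMIs in the YFP− library (top) and the YFP+ library (bottom), with dashed lines at 2% and 5%. The 176 and 309 low cells, left of the first line, run without a gap into the cells with more class II.

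The make-up of class II RNA rests on the genes of the rule and is also given as a description only. *Cd74* made up 56.7% (55.3 to 58.0) of the 4 genes' UMIs in YFP− low cells and 59.5% (58.3 to 60.7) in YFP+ low cells. In the high cells it made up 54.5% (54.0 to 54.9) and 55.0% (54.8 to 55.2). *H2-Ab1* took 14.9% (13.9 to 15.9) and 13.2% (12.4 to 14.0) in low cells, against 17.2% (16.8 to 17.5) and 16.7% (16.5 to 16.8) in high cells. Free RNA, measured in barcodes with 10 to 100 UMIs, had a different make-up, with *Cd74* at 42.8% and 41.6% and *H2-Ab1* at 24.5% and 24.3% of the 4 genes. Class II took 3.77% of free RNA beside YFP− cells and 4.39% beside YFP+ cells, and its part in the class II UMIs of the low cells was not tested.

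Across genes outside the rule, 50 of 2761 genes (1.81% of those with a mean level of at least 50 CPM, counts per 1000000 UMIs outside the 4 class II genes) were at least 1.5-fold higher in low than in high cells in both libraries, and 25 (0.905%) were at least 1.5-fold lower in both. Genes are called higher or lower below in this sense, and ratios are log2 values of low over high cells with 1 CPM added, given for the YFP− and then the YFP+ library. Within the YFP− library alone 7.5% of the genes were higher and 5.4% lower, and within the YFP+ library alone 4.42% and 2.17%. The median ratio of all genes was 0.04 and 0.06. When levels were taken over all UMIs, class II included, 88 genes were higher and 14 lower, and when the median ratio was set to 0, 38 were higher and 31 lower. Against the cells with 2 to 5% class II in place of the high cells, only 14 genes were higher and 5 lower. Of these, 11 and 3 were among the 50 and 25, so most genes called here lost their call in that setting. Of the 50 higher genes 14 had a mean under 50 CPM in high cells, and of the 25 lower genes 4 had one in low cells. They passed the level limit only through the class in which they were higher and had to differ. Among the genes named here these were *Top2a*, *Hist1h2ae*, *Ednrb*, *Colec12*, *Selenoh* and *C4b*, and *Ccnd2* and *Socs3* among the lower genes.

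The low cells carried core macrophage genes that the rule did not use. C1q, of which the rule required 5 UMIs, had a median of 41 and 32 UMIs in low cells and of 45 and 35 in high cells. Of 12 core macrophage genes, all of them tested, none was higher and 1 was lower, and the median ratio of the list was -0.03. *Csf1r*, the receptor that macrophages need to survive, stood at 1080 CPM in low and 1025 CPM in high cells of the YFP− library, and at 1000.3 CPM and 895 CPM in the YFP+ library. *Adgre1*, which encodes F4/80, stood at 273 CPM and 300 CPM in the YFP− library and at 303 CPM and 276 CPM in the YFP+ library. *Cd14*, a co-receptor for bacterial lipopolysaccharide, was the lower gene, with 380 CPM and 640 CPM in the YFP− library and 480 CPM and 744 CPM in the YFP+ library.

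Of the genes called lower, the lowest mean ratios belonged to the peptide exchange factor of class II. *H2-DMb1*, the beta chain of H2-DM, stood at 179 CPM (143 to 222) in low and 756 CPM (689 to 827) in high cells of the YFP− library. In the YFP+ library it stood at 178 CPM (147 to 215) and 789 CPM (757 to 821). The low cells of both libraries thus shared a level, far below their high cells, and the ratios were -2.07 (-2.43 to -1.74) and -2.14 (-2.43 to -1.87). *H2-DMa*, the alpha chain, stood at 327 CPM (277 to 383) against 1037 CPM (959 to 1120) in YFP− cells, and at 302 CPM (260 to 348) against 1039 CPM (1002 to 1077) in YFP+ cells, with ratios of -1.66 and -1.78. *H2-DMb2*, a close copy of *H2-DMb1* with which reads can be shared, was near its floor, with 0 and 3 UMIs in low and 7 and 28 UMIs in high cells. Free RNA held more *H2-DMb1* than the low cells did, at 561 CPM and 630 CPM.

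Other members of the peptide loading set differed less. Of 9 genes on that list 6 were tested, 2 were lower, none was higher, and the median ratio was -0.29. *Ctss*, which encodes cathepsin S, stood at 837 CPM in low and 1210 CPM in high YFP− cells, and at 1026 CPM and 1307 CPM in YFP+ cells, with ratios of -0.53 and -0.35 that did not reach 1.5-fold. *Lgmn*, a lysosomal protease, had ratios of -0.30 and 0.02. *Ifi30*, the lysosomal thiol reductase, had ratios of 0.08 and -0.16, with intervals that included 0 in both libraries.

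*Ciita*, the class II coactivator, lay under the 50 CPM limit and is given for its role. It had 8.54 CPM (2.33 to 21.9) in low and 46.7 CPM (31.3 to 67.1) in high YFP− cells, and 6.49 CPM (1.77 to 16.6) and 52.0 CPM (44.1 to 60.9) in YFP+ cells. The low values rest on 4 UMIs in each library and are little above the floor of 3 counts, which is 6.41 CPM and 4.86 CPM. The ratios were -2.32 (-4.42 to -0.94) and -2.82 (-4.90 to -1.62). Of the other regulators, *Spi1* (PU.1) had ratios of -0.09 and -0.10, *Irf8* of -0.86 and -0.24, and *March1*, a ubiquitin ligase that takes class II off the surface, of -0.43 and -0.22, and none of the 3 tested regulators was called. The costimulatory genes *Cd86* and *Cd83* had ratios of -0.14 and -0.15, and of -0.59 and -0.46, so that *Cd83* was lower in both libraries with intervals below 0 and short of 1.5-fold in the YFP+ library.

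Class I presentation, which shows peptides of the cell's own cytosol, differed less. Among 11 tested genes of 16 on the list none was higher and 1 was lower, and the median ratio was -0.19. Ratios were below 0 in both libraries for 10 of the 11, as for 25.7% of all genes tested. *B2m*, the light chain of class I, stood at 2234 CPM in low and 2487 CPM in high YFP− cells and at 2236 CPM and 2336 CPM in YFP+ cells. *H2-D1* had ratios of -0.46 and -0.35 and *H2-K1* of -0.12 and -0.17. The called member was *H2-T23*, the nonclassical class I gene Qa-1, with 87.5 CPM (62.8 to 119) against 197 CPM (163 to 235) in YFP− cells and 89.2 CPM (67.2 to 116) against 182 CPM (167 to 198) in YFP+ cells. In the cells with 2 to 5% class II *H2-T23* stood at 89.3 CPM and 106 CPM, and against these cells its call ended, with ratios of -0.03 and -0.24. *H2-M3*, another nonclassical class I gene, had ratios of -0.47 and -1.18 and was short of 1.5-fold in the YFP− library. *Ifngr1*, a chain of the receptor for interferon gamma, a strong inducer of class II, had ratios of -0.91 and -0.46, the latter short of 1.5-fold. The other tested gene of the interferon gamma list, *Ifngr2*, had ratios of 0.04 and -0.26, and none of the 3 tested interferon-stimulated genes was called.

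**Figure D2:**
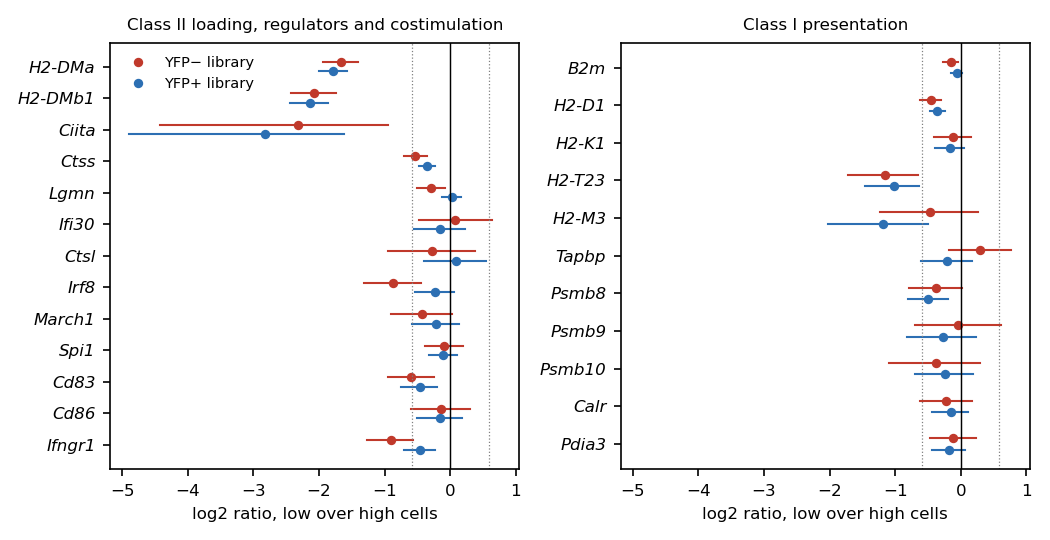
Log2 ratio of low over high cells (x axis) for genes of class II loading, regulation and costimulation (left) and of class I presentation (right), with the YFP− library in red and the YFP+ library in blue. Bars are exact 95% intervals for counting error, dotted lines mark 1.5-fold, and *H2-DMa*, *H2-DMb1* and *Ciita* lie furthest to the left in both libraries.

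Several genes of scavenging resident macrophages were higher in the low cells. Of 17 tested genes of 19 on that list, 15 had ratios above 0 in both libraries, as did 1088 (39.4%) of the 2761 genes tested, 4 were called higher (1 of them, *Ednrb*, past the level limit only through the low cells) and none lower, and the median ratio was 0.37. *Lyve1* stood at 502 CPM (440 to 570) in low and 272 CPM (233 to 317) in high YFP− cells, and at 383 CPM (335 to 435) and 183 CPM (167 to 199) in YFP+ cells. The ratios, 0.88 (0.59 to 1.18) and 1.06 (0.84 to 1.29), were alike in size in cells of either origin. *Folr2*, the folate receptor beta, stood at 495 CPM against 295 CPM and at 431 CPM against 253 CPM, with ratios of 0.75 and 0.77. *Ednrb*, the endothelin receptor B, stood at 130 CPM (99.6 to 167) against 40.3 CPM (26.1 to 59.4) and at 76.2 CPM (56.0 to 101) against 22.4 CPM (17.4 to 28.5), with ratios of 1.67 and 1.72. *Igf1*, a growth factor, had ratios of 0.98 and 1.26. Against the cells with 2 to 5% class II in place of the high cells, the calls of *Lyve1*, *Folr2*, *Ednrb* and *Igf1* ended. In YFP+ cells with 2 to 3%, 3 to 4% and 4 to 5% class II, *Lyve1* stood at 364 CPM, 303 CPM and 268 CPM, and *Folr2* at 440 CPM, 305 CPM and 342 CPM. *Ednrb* stood at 55.4 CPM in YFP+ cells with 2 to 5%, and *Igf1* at 147 CPM in such YFP− cells. The abundant members moved less, with *Pf4* at 5784 CPM against 4646 CPM and 5092 CPM against 3796 CPM, and the mannose receptor *Mrc1* with ratios of 0.36 and 0.37. *Cd163*, the hemoglobin scavenger receptor, had ratios of 0.01 and -0.04, and *Stab1* had 0.73 and 0.56, short of 1.5-fold in the YFP+ library.

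In its supplement the study gave marker genes for a macrophage cluster, among them *Retnla*, *Ednrb* and *Lyve1*. Of the 13 such genes, all tested, 7 were higher in the low cells (*Ednrb* again among them), none was lower, and the median ratio was 0.72. That list was chosen on these samples and is not independent evidence of its direction. *Wfdc17*, a small secreted protein with a WAP domain, stood at 908 CPM (823 to 998) against 461 CPM (409 to 517) in YFP− cells and at 874 CPM (802 to 951) against 385 CPM (363 to 408) in YFP+ cells. *Ccl24*, a chemokine for eosinophils, stood at 468 CPM (408 to 534) against 193 CPM (160 to 231) and at 321 CPM (278 to 369) against 141 CPM (128 to 156). Low cells of both libraries were above their high cells, with ratios of 0.98 and 1.18 for *Wfdc17* and of 1.27 and 1.18 for *Ccl24*. *Ly6e*, a surface protein anchored by lipid, had ratios of 1.33 and 1.02, and *Ninj1*, which acts in rupture of the plasma membrane, of 0.72 and 0.71. In YFP+ cells with 2 to 5% class II *Wfdc17* stood at 583 CPM, *Ccl24* at 214 CPM and *Ly6e* at 158 CPM. Against cells with 2 to 5% in place of the high cells, the calls of *Wfdc17*, *Ccl24*, *Ly6e* and *Ninj1* ended. *Ccl6* had ratios of -0.51 and -0.29, and *Retnla*, a secreted product of alternatively activated macrophages, differed in sign, with 1.10 and -0.30. Without the cells of the Cd209 type, described next, the ratios of *Retnla* were 0.08 and -2.13.

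A small set of low cells carried some genes of the Cd209 lectins, which came from a list of 11 genes of Cd209 and epineurial macrophages. Of its 5 tested members *Ccl24* was higher, *Mgl2* was lower, and *Retnla*, *Clec10a* (ratios of -0.04 and 0.36) and *Cd209a* (0.70 and 0.06) were not called. The members given next lay under the 50 CPM limit. *Cd209f* stood at 89.7 CPM (64.6 to 121) in low and 6.44 CPM (1.76 to 16.5) in high YFP− cells and at 68.1 CPM (49.1 to 92.0) and 8.84 CPM (5.77 to 12.9) in YFP+ cells. *Cd209g* had 25 UMIs in YFP− low cells and 0 in high cells, at least 11.05-fold higher against a floor of 3 counts in the high cells. *Fcna*, which encodes ficolin A, a lectin that starts complement, stood at 44.8 CPM against 12.9 CPM and at 45.4 CPM against 8.50 CPM. These genes were high in few cells: 17 YFP− low cells (9.66%, 5.73 to 15.01) and 22 YFP+ low cells (7.12%, 4.52 to 10.6) had 2 or more UMIs over *Fcna*, *Cd209d*, *Cd209f* and *Cd209g*, against 3 (1.10%, 0.228 to 3.19) and 15 (0.984%, 0.552 to 1.62) high cells. Among cells with 2 to 5% class II, 6 YFP− (1.36%, 0.501 to 2.94) and 25 YFP+ cells (2.47%, 1.60 to 3.62) met this limit. In the YFP+ library the share was 5.42% from 1 to 2% class II and 5.04% from 2 to 3%, so the 2% limit did not set these cells apart there. Seen from the other side, 17 of 26 YFP− cells that met the limit (65.4%, 44.3 to 82.8) and 22 of 62 such YFP+ cells (35.5%, 23.7 to 48.7) were class II low. Free RNA held *Cd209f* at 64.0 CPM and 54.0 CPM and *Fcna* at 35.4 CPM and 21.6 CPM. With each cell thinned to 1000 UMIs, 8 and 16 low cells and 1 and 8 high cells met the same limit. The whole list took 0.5% or more of UMIs in 14.8% (9.88 to 20.9) of low and 8.46% (5.44 to 12.4) of high YFP− cells, and in 9.39% (6.38 to 13.2) of low and 10.96% (9.43 to 12.6) of high YFP+ cells, so that the classes differed less by the whole list and in opposite order in the libraries. *Mgl2*, a galactose lectin on the same list, went the opposite way, with 818 CPM against 1546 CPM and 861 CPM against 1356 CPM and ratios of -0.92 and -0.65. Without the cells with 2 or more UMIs on these lectins, 45 genes were higher and 16 lower, and the ratios were 0.59 and 0.87 for *Lyve1*, 0.86 and 1.32 for *Ednrb*, 1.08 and 0.87 for *Ccl24*, and 0.85 and 0.52 for *Ly6e*, the last then short of 1.5-fold in the YFP+ library. The calls of *Ninj1* (0.38 and 0.57 there), *Cd52* (-0.55 and -0.55), *Lilra5* (-1.02 and -0.52) and *Hspa1a* (-0.57 and -1.14) ended as well.

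The genes called higher included genes of the cell cycle. *Top2a*, a topoisomerase of dividing cells, stood at 79.0 CPM (55.6 to 109) in low and 9.67 CPM (3.55 to 21.04) in high YFP− cells, and at 126 CPM (99.96 to 158) and 10.5 CPM (7.16 to 14.96) in YFP+ cells. *Stmn1*, which destabilizes microtubules, stood at 331 CPM (281 to 387) against 45.1 CPM (30.0 to 65.2) and at 347 CPM (302 to 397) against 67.0 CPM (57.9 to 77.0). Low cells were above high cells in both libraries, with ratios of 2.91 and 3.47 for *Top2a* and 2.85 and 2.36 for *Stmn1*. Free RNA held *Stmn1* at 281 CPM and 308 CPM and *Top2a* at 6.85 CPM and 17.5 CPM. *Hist1h2ae*, a histone gene with near-identical copies among which reads can be split, had ratios of 4.98 and 4.07, the former against a single UMI in high cells. The chromatin proteins *Hmgb2* and *Hmgn2* had ratios of 1.16 and 1.504, and of 0.85 and 1.37. Of the 8 genes on the cell-cycle list 4 passed the level limit, *Top2a* only through the low cells, so no count or median is read from that list.

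These values came from few cells. Cells with 3 or more UMIs over *Mki67*, *Top2a*, *Birc5*, *Pclaf* and *Cdk1* numbered 8 of 176 YFP− low cells (4.55%, 1.98 to 8.76) and 23 of 309 YFP+ low cells (7.44%, 4.78 to 10.96). Among high cells there were 1 of 272 (0.368%, 0.00931 to 2.03) and 8 of 1524 (0.525%, 0.227 to 1.03). Cells with 2 to 5% class II held 2 of 441 (0.454%, 0.0550 to 1.63) and 16 of 1014 (1.58%, 0.905 to 2.55). In the YFP+ library the share was 3.78% (1.74 to 7.06) from 2 to 3% class II. The low class thus held most of the YFP− cycling cells, 8 of 11 (72.7%, 39.0 to 94.0), and 23 of 47 (48.9%, 34.1 to 63.9) of the YFP+ ones, while it held 19.1% and 10.2% of all other cells. Cycling cells were deeper, with medians of 4303 and 3408 UMIs against 2518 and 1886, and their class II UMIs, 70 and 78 at the median, were nearer to the 91 and 101 of the other cells than their class II shares, 1.59% and 2.05% against 3.94% and 5.25%. After thinning to 1000 UMIs, 5 and 17 low cells and 0 (which by the floor of 3 counts allows a share of up to 1.10%) and 4 high cells met the limit. The cycling cells chosen after thinning, 5 YFP− and 28 YFP+ cells, had medians of 5250 and 2298 UMIs before thinning. The other cells had 2520.5 and 1894. At that full depth these cycling cells had 70 and 31.5 class II UMIs at the median, against 91 and 101 in the other cells. Their class II shares were 1.33% and 1.43%, against 3.94% and 5.24%. Without the cycling cells, 49 genes were higher and 25 lower, of which 31 and 21 were among the 50 and 25 above. *Top2a*, which helped to choose these cells, then rested on 3 UMIs in the low cells of each library. *Stmn1* had ratios of 0.68 and 0.61, and the calls of *Hmgb2* (0.03 and 0.87), *Hmgn2* (0.26 and 0.39), *Hist1h2ae* (1.98 and 0.33), *Selenoh* (0.51 and 0.98) and *Hspa1a* (-0.54 and -1.12) ended. No low cell was both cycling and high in the Cd209 lectins.

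**Figure D3:**
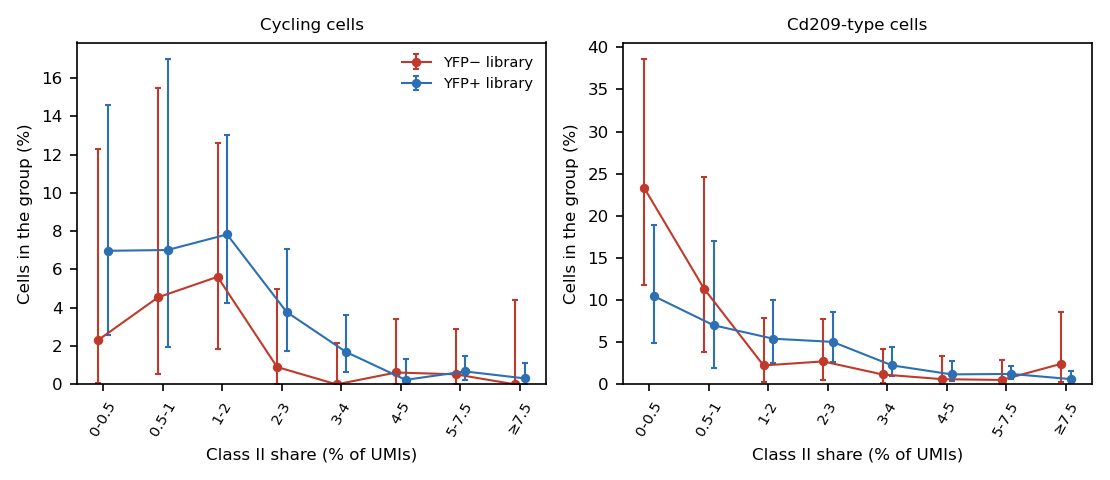
Percent of cells (y axis) that were cycling (left, 3 or more UMIs over 5 genes) or of the Cd209 type (right, 2 or more UMIs over 4 genes) by class II share (x axis, 8 bins in percent of UMIs), with the YFP− library in red and the YFP+ library in blue and exact 95% binomial intervals. The Cd209 type was highest under 0.5% class II, at 23.3% and 10.5%, and cycling cells were spread over the 3 bins of the low class.

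Of the low cells, 146 YFP− (83.0%) and 251 YFP+ (81.2%) belonged to neither group and carried little RNA of Schwann cells, fibroblasts, endothelial or mural cells (under 0.2% of UMIs). In these cells against the matching high cells, 42 genes were higher and 20 lower, of which 27 and 16 were among the 50 and 25 above. *Lyve1* had ratios of 0.68 and 0.99 there, *Ednrb* of 0.91 and 1.48, *Igf1* of 1.02 and 1.28, *Wfdc17* of 0.87 and 1.11, and *Ctsd* of 1.89 and 1.38. *H2-DMb1* had -2.11 and -2.26. *Stmn1* had 0.65 and 0.66 and *Retnla* had 0.34 and -2.02. *Selenoh*, at 0.15 and 1.05, *Pdcd2l*, at -0.49 and -0.79, *Ninj1*, at 0.51 and 0.71, and *Hspa1a*, at -0.39 and -0.99, were short of 1.5-fold in the YFP− library. So were *Hmgb2*, at 0.02 and 0.96, *Hmgn2*, at 0.27 and 0.42, and *Cd52*, at -0.58 and -0.48, and the last 2 were short in the YFP+ library as well. *Ly6e*, at 0.85 and 0.33, was short in the YFP+ library, and *Hist1h2ae*, at 1.74 and -0.69, rested on 3 and 1 UMIs in low cells. *Top2a* and *Fcna*, whose UMIs chose the cells left out, rested on 2 and 3 and on 3 and 8 UMIs in the low cells that remained.

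Further genes higher in the low cells belonged to no single list. *Ctsd*, which encodes the lysosomal protease cathepsin D, stood at 425 CPM (368 to 488) against 124 CPM (97.9 to 155) in YFP− cells and at 332 CPM (288 to 381) against 146 CPM (133 to 161) in YFP+ cells, with ratios of 1.77 and 1.18. *Lgals3*, which encodes galectin-3, stood at 186 CPM (149 to 229) against 43.5 CPM (28.7 to 63.3) and at 141 CPM (113 to 174) against 91.8 CPM (81.2 to 103). The low cells were above the high cells in both libraries, by 2.07 on the log2 scale among YFP− cells and by 0.61 among YFP+ cells, a difference that was not tested. *Ltc4s*, the synthase of leukotriene C4, had ratios of 1.04 and 1.07, *Colec12*, a scavenger receptor of the collectin type, had 1.28 and 1.21, and *Selenoh*, a nuclear selenoprotein, had 0.90 and 1.20 in all cells. The calls of *Ltc4s*, *Colec12* and *Selenoh* ended against cells with 2 to 5% class II. In YFP− cells *Ltc4s* stood at 532 CPM in low cells and 358 CPM with 2 to 5%, and *Selenoh* at 64.1 CPM and 51.4 CPM. In YFP+ cells *Colec12* stood at 63.2 CPM and 48.1 CPM. *Ctsd* and *Lgals3* were the called members among 10 tested genes of activated microglia, whose median ratio was -0.15. *Apoe*, the most abundant gene of that list, stood at 24517 CPM in low and 34453 CPM in high YFP− cells and at 21730 CPM and 23514 CPM in YFP+ cells. None of 5 tested genes of homeostatic microglia was called, and *P2ry12*, an ADP receptor, had ratios of 0.40 and 1.19. Of 9 genes the study listed for nerve macrophages none was higher and *Cd52* was lower, with -0.63 in both libraries. Of 5 tested complement genes *C4b* had ratios of 0.97 and 0.93 and passed the level limit only through the low cells.

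*Ccr2* was lower in the low cells of both libraries, and its level was higher in YFP+ than in YFP− cells of either class. It stood at 40.6 CPM (24.4 to 63.4) in low and 209 CPM (175 to 249) in high YFP− cells, and at 183 CPM (151 to 220) and 391.9 CPM (370 to 415) in YFP+ cells. The ratios were -2.34 (-3.15 to -1.67) and -1.09 (-1.39 to -0.82), and the intervals of YFP+ low cells and YFP− high cells overlapped. Cells with 2 to 5% class II stood at 130 CPM (110 to 153) and 229 CPM (208 to 252). The YFP+ low cells were less than 1.5-fold below these cells, so that the call ended against them. Free RNA held *Ccr2* at 135 CPM and 240 CPM. Of 5 tested monocyte genes *Ccr2* was the one called. *Lsp1*, a protein of the leukocyte cytoskeleton, was lower by less than 1.5-fold, with ratios of -0.52 and -0.52, while *S100a6* had -0.10 and 0.06 and *S100a4* had 0.76 and -0.11. *Chil3*, *Plac8* and *Ly6c2* had no UMI in cells of any class II share, and *Vcan* had 1, in YFP− cells with 5 to 7.5%. *Fn1* had none in YFP− cells. In YFP+ cells it had 11, 0 and 2 UMIs under 0.5%, from 0.5 to 1% and from 1 to 2% class II (64.3 CPM, 0 CPM and 5.92 CPM). YFP+ high cells had 4 and 1 *Fn1* UMIs, at 5 to 7.5% and at 7.5% or more (2.25 CPM and 0.857 CPM). Of the dendritic cell genes 2 were tested and none was called. *Clec9a*, *Xcr1*, *Ccr7* and *Dpp4* had no UMI in any low cell and few or none in the others. Further members had few UMIs under 0.5%, from 0.5 to 1% and from 1 to 2% class II. *Zbtb46* had 3, 1 and 2 in YFP− and 1, 0 and 1 in YFP+ cells, and *Fscn1* had 0, 1 and 3 and 1, 0 and 8. *Flt3* had 0, 0 and 1 and 2, 1 and 1, and *Itgax* had 1 UMI, in YFP− cells with 1 to 2%.

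The remaining lower genes named by the size of their ratio had varied roles. *Clec4b1*, a C-type lectin, stood at 135 CPM (103 to 172) against 350 CPM (305 to 399) in YFP− cells and at 169 CPM (138 to 204) against 349 CPM (328 to 371) in YFP+ cells, with ratios of -1.37 and -1.05. *Lyz1*, a lysozyme, had ratios of -0.98 and -1.36, and its close copy *Lyz2*, with which reads can be shared, had -0.72 and -0.59 at 9916 CPM against 16286 CPM and 10384 CPM against 15653 CPM. *Mpeg1*, the pore-forming perforin-2, had ratios of -0.69 and -0.93, and *Lilra5*, an activating leukocyte receptor, of -1.14 and -0.61. *Ccnd2*, which encodes cyclin D2, had ratios of -0.96 and -1.26, opposite in sign to the genes of the later cell cycle. *Plbd1*, a phospholipase, had -0.96 and -1.19, *Tmem176a*, a membrane protein of myeloid cells, had -0.97 and -0.85, and *Pdcd2l* had -0.78 and -0.84. *Socs3*, a feedback inhibitor of cytokine signals, rested on 15 and 30 UMIs in low cells, with ratios of -0.84 (-1.83 to 0.05) and -0.73 (-1.34 to -0.19).

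Early-response and stress genes, which tissue digestion can induce, gave 1 call. None of 13 tested early-response genes was called, with a median ratio of -0.08, and *Fos* stood at 1700 CPM against 1653 CPM and at 1905 CPM against 1919 CPM. Of 6 tested heat-shock genes 1 was lower, *Hspa1a*, with 470 CPM (410 to 536) against 744 CPM (678 to 815) in YFP− cells and 503 CPM (448 to 562) against 1159 CPM (1121 to 1199) in YFP+ cells. The call of *Hspa1a* ended in each of the settings without cycling cells, without Cd209-type cells and without these and cells with RNA of other types. Its close copy *Hspa1b* had ratios of -0.52 and -0.77. Among 8 tested cytokine and chemokine genes 1 was higher, *Ccl2*, with ratios of 0.74 and 0.59, and 1 was lower, *Socs3*. *Ccl2* was not graded by class II. In YFP+ cells it stood at 287 CPM, 250 CPM and 201 CPM in the 3 bins up to 2%. With 2 to 3%, 3 to 4% and 4 to 5% class II it stood at 368 CPM, 191 CPM and 297 CPM there. In YFP− cells it stood at 86.7 CPM under 0.5%, 353 CPM from 0.5 to 1% and 167 CPM from 1 to 2%. The share of mitochondrial UMIs was 1.01% and 1.03% in low and 0.848% and 0.885% in high cells at the median, and that of ribosomal protein UMIs was 20.7% and 19.6% against 18.7% and 20.4%.

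**Figure D4:**
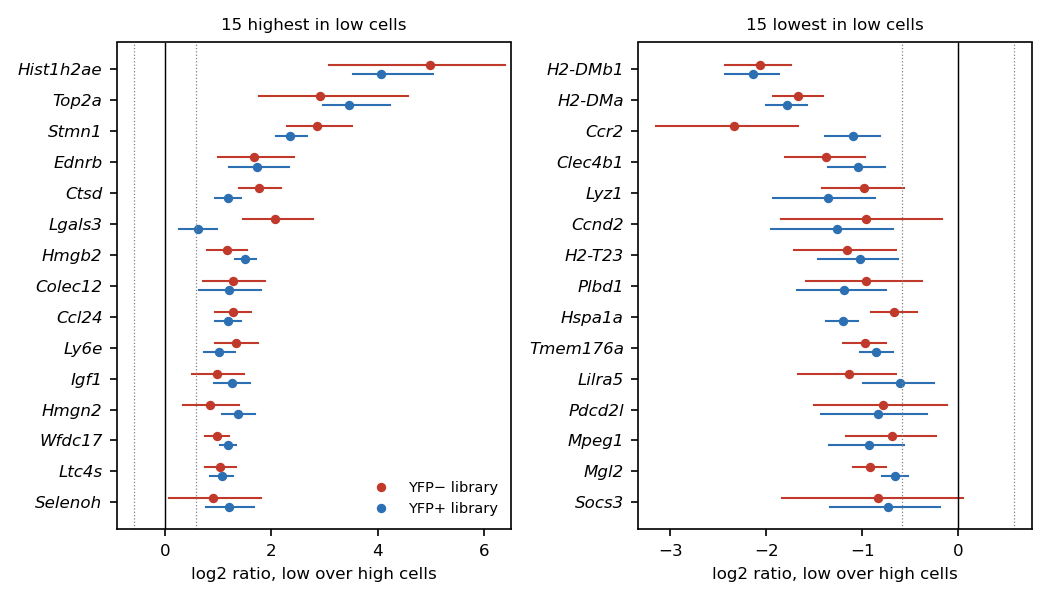
Log2 ratio of low over high cells (x axis) for the 15 genes highest (left) and the 15 lowest (right) among those at least 1.5-fold the same way in both libraries, with the YFP− library in red and the YFP+ library in blue. Bars are exact 95% intervals for counting error and dotted lines mark 1.5-fold; *Lgals3*, at 2.07 and 0.61, and *Ccr2*, at -2.34 and -1.09, show wide gaps between the libraries.

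Divided into 8 bins of class II share, the cells showed graded levels of some genes and not of others. *H2-DMb1* was higher in every next bin of both libraries, from 95.4 CPM under 0.5% class II to 946 CPM at 7.5% or more in the YFP− library, and from 105 CPM to 978 CPM in the YFP+ library. *Ednrb* had 260 CPM under 0.5% and 29.9 CPM at 7.5% or more in the YFP− library, and 105 CPM and 15.4 CPM in the YFP+ library. *Wfdc17* had 1474 CPM and 437 CPM, and 1147 CPM and 347 CPM. Within the low class itself, *Lyve1* had 676 CPM, 496 CPM and 419 CPM in the 3 bins up to 2% of the YFP− library and 562 CPM, 334 CPM and 308 CPM in the YFP+ library, so the lowest class II share went with the most *Lyve1*. *Mgl2* had its lowest level under 0.5%, at 546 CPM and 679 CPM. Other genes stepped down at 2% in the YFP− library, where *Lgals3* stood at 252 CPM in the bin below and 28.0 CPM in the bin above, and *Stmn1* at 389 CPM and 126 CPM. The bin from 1 to 2% held 59 of the 87 *Lgals3* UMIs of the YFP− low cells, and the lower bins had 95.4 CPM and 143 CPM, the former near the 89.8 CPM of the highest bin. *Retnla* was high at both ends, with 2827 CPM under 0.5%, 64.7 CPM at 3 to 4% and 1455 CPM at 7.5% or more in the YFP− library, and 1188 CPM, 721 CPM and 2214 CPM in the YFP+ library. Of the C1q genes, *C1qc* stayed between 5052 CPM and 6477 CPM over all bins of the YFP− library and between 5060 CPM and 5756 CPM in the YFP+ library. *C1qb* had 5324 CPM in the lowest and 8458 CPM in the highest bin of the YFP− library and 6347 CPM and 7746 CPM in the YFP+ library, and *C1qa* had 5394 CPM and 8865 CPM, and 6534 CPM and 7635 CPM.

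The 10 genes whose bins ranked most like class II were *H2-DMb1*, *H2-DMa*, *Clec4b1*, *Mpeg1*, *Lilra5*, *Cd81*, *Asah1*, *Pid1*, *Mgl2* and *Cd52*, with a Spearman rho of 1 in both libraries for *H2-DMb1* and a mean rho of at least 0.905 for all 10. The 10 most opposite were *Tmsb4x*, *Ltc4s*, *Maf*, *Wfdc17*, *Ednrb*, *Ccl24*, *Ndufa4*, *Igf1*, *Ifi27l2a* and *Fxyd2*, with a mean rho of -0.929 or below. These rhos are taken over 8 bins of a library, whose points share that library and its free RNA, and they are a description of cells ordered by the rule's own measure. The range was wide for some and narrow for others, since from the lowest to the highest bin *Ednrb* differed by -2.89 on the log2 scale and *Tmsb4x* by -0.31.

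**Figure D5:**
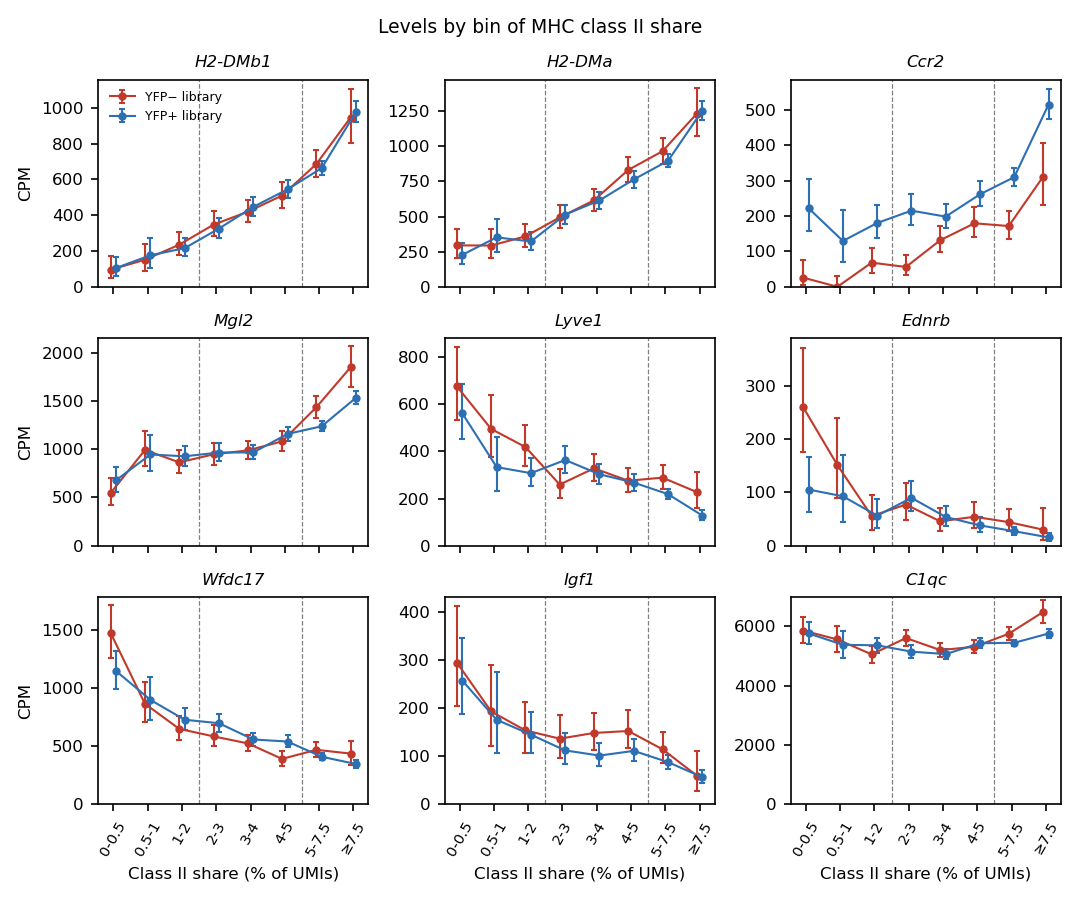
Level in CPM (y axis, from 0) of 9 genes by class II share (x axis, 8 bins in percent of UMIs), with the YFP− library in red, the YFP+ library in blue, exact 95% intervals for counting error, and dashed lines at the limits of the low and high classes. *H2-DMb1* runs from 95.4 to 946 CPM in the YFP− library, while *Wfdc17* runs down from 1474 to 437 CPM and *C1qc* lies between 5052 and 6477 CPM there.

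RNA of other cell types was measured with marker lists. The Schwann cell list summed to 327 CPM in low and 327 CPM in high YFP− cells and to 657 CPM and 383 CPM in YFP+ cells. The lists of fibroblasts and endothelial cells summed to 79.0 CPM and 102 CPM in low cells of the YFP− library and to 85.9 CPM and 92.4 CPM in those of the YFP+ library, led by *Gsn* and *Egfl7*. B cell genes summed to 327 CPM and 381 CPM, led by *Ighm*, with *Cd79a* and *Ms4a1* at 0. The T cell genes *Cd3e*, *Cd3d*, *Cd3g* and *Trac*, the neutrophil genes *S100a8* and *S100a9*, the mast cell genes *Cpa3* and *Kit* and all 5 erythroid genes were at 0 in the low cells of both libraries. Other members of these lists had few UMIs in the low cells, with *Csf3r* at 9 and 6, *Cd4* at 4 and 2, *Hdc* at 1 and 0 and *Il7r* at 0 and 1. Their part in the results was not tested beyond the values given without cells rich in such RNA, where 58 genes were higher and 25 lower.

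Low cells were a larger part of the YFP− than of the YFP+ library. They made up 19.8% (17.2 to 22.6) of 889 YFP− cells and 10.9% (9.73 to 12.1) of 2847 YFP+ cells with enough C1q, while high cells made up 30.6% (27.6 to 33.7) and 53.5% (51.7 to 55.4). The order was the same in each range of depth, with 21.1% and 11.4% of cells with 1000 to 2000 UMIs, 17.3% and 9.98% of cells with 2000 to 4000 UMIs, and 33.3% (22.7 to 45.4) and 12.99% (6.41 to 22.6) of deeper cells. With each cell thinned to 1000 UMIs the shares were 17.8% and 10.7%. Each origin had 1 library, so origin and library cannot be told apart.

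Among low cells, 197 of 2820 genes (6.99%) had a level at least 1.5-fold higher among YFP+ cells and 219 (7.77%) a level at least 1.5-fold higher among YFP− cells. The genes named next were taken from the ends of that order after their values were seen. YFP+ low cells had more *Ccr2*, by 2.15 on the log2 scale (1.47 to 2.96), where high cells differed by 0.90. They had more *S100a6*, a calcium-binding protein, at 441 CPM against 171 CPM, and more *Cdkn1a*, which encodes the cell-cycle inhibitor p21, at 128 CPM against 34.2 CPM. YFP− low cells had more *Colec12*, at 158 CPM against 63.2 CPM, more *Lyz1*, at 141 CPM against 53.5 CPM, and more *Gpx3*, an extracellular glutathione peroxidase, at 186 CPM against 73.0 CPM. The differences in *S100a6*, *Colec12* and *Gpx3* were 1.36, -1.31 and -1.34 on the log2 scale among low cells and 1.20, -1.23 and -1.27 among high cells.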

How the data were processed

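Single-cell RNA was measured in 2 libraries (YFP− and YFP+) of sciatic nerve macrophages from a pool of 19 mice, made with 10x Genomics chemistry v2. The number of mice is that of the study's methods, and a figure legend of the study gives a smaller n for the pooled nerves. The deposited values are raw UMI counts of 54838 genes, with no normalization and no filter on cells. The submitters' processing notes name Cell Ranger 3.0.2, Seurat 2.2.0 and GRCm38, and the annotation release is not given in the sources used here. Bulk libraries of the study are not analysed here, and a few genes are not reported here.

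Counts were summed per library and class of cells and divided by the UMIs outside the 4 class II genes (CPM). Log2 ratios used a pseudocount of 1 CPM. Intervals are exact Poisson, conditional binomial (ratios) or Clopper-Pearson (shares), at 95%, and UMIs correct for amplification. Depth is 468323 and 616792 such UMIs in low cells and 620786 and 2941825 in high cells, and 3 counts were taken as the floor. Tested genes had a mean of at least 50 CPM over the 4 sums. A gene was called at 1.5-fold the same way in both libraries, a rule of size with no test. Named were the 15 called genes at each end of the mean ratio (without ribosomal, mitochondrial and predicted genes), members of 29 gene lists, and genes whose choice is given beside them. The cells and lists were chosen with earlier results of these data known. Doublets were kept, and cells above 3 times the median UMIs were left out as an alternative. The script was tested on simulated data. Positions are from GENCODE M21, which held 99.95% of the gene identifiers. Python 3.11.15, numpy 2.4.6, scipy 1.17.1, pandas 2.3.3 and matplotlib 3.10.9 were used.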

Additional observations from a re-analysis of the deposited data

Results flagged for a closer look

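*Retnla* differed in sign between the libraries. Its log2 ratio of low over high cells was 1.10 in the YFP− library (1414 CPM in low and 659 CPM in high cells) and -0.30 in the YFP+ library (1055 CPM and 1303 CPM), and free RNA held 1563 CPM and 1804 CPM. The difference between the ratios was not tested, since each origin had 1 library. Without the Cd209-type cells the ratios were 0.08 and -2.13, and without these, cycling cells and cells with RNA of other types they were 0.34 and -2.02.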

How the results depend on the processing

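The share of low cells moved with its own limit, to 9.79% and 5.02% under 1% class II and to 32.2% and 19.2% under 3%, and to 12.6% in the YFP+ library after subtraction of 10% free RNA, and 15 other values of these shares moved by less than their interval. The counts of 50 higher and 25 lower genes became 82 and 40 with low cells under 1%, 88 and 14 with CPM over all UMIs, 165 and 61 at a mean of at least 20 CPM, 993 and 904 with no minimum, and 123 and 65 in cells with fewer than 2000 UMIs. They were 207 and 149 in the YFP− library alone, 122 and 60 in the YFP+ library alone, and 14 and 5 against cells with 2 to 5% class II, of which 11 and 3 were among the genes of the report. Thinning each cell to 1000 UMIs gave 89 higher genes, of which 37 were among the 50. Larger counts did not keep all reported genes. Of the 50 and 25, 35 and 19 were called with low cells under 1%, and 28 and 18 in cells with fewer than 2000 UMIs. With each cell weighted equally 56 genes were higher and 31 lower, of which 35 and 23 were among the 50 and 25. Lower genes numbered 14 without cells rich in the Cd209 and epineurial list and 16 without Cd209-type cells, a setting chosen after seeing the data, as were the settings without 3 kinds of cells and without shared barcodes. Beyond the smaller samples and changed limits themselves, the cause was not tested. The ratio of *Cd209d* became -0.20 without cells rich in the epineurial list, and that of *Socs3* became 0.027 against cells with 2 to 5% class II. The mean ratio of *Retnla*, 0.40 as reported, became -1.03 without Cd209-type cells, -0.84 without 3 kinds of cells, -0.27 without cells rich in the epineurial list, -0.25 in cells with 2000 UMIs or more and -0.30 in the YFP+ library alone. Of the other genes recomputed under these settings none changed sign in the mean ratio. Low and high cells were compared within each library, and no paired test over the 2 libraries was made. These libraries are 1 of each origin and not replicates of a condition. With 1 library per origin no replicate could be left out.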
